A study of Rattus norvegicus with 12 samples.

Results

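Replication licensing is the step in which a cell prepares its origins of replication before S phase. The origin recognition complex and Cdc6 recruit Cdt1 and the 6-subunit Mcm2 to Mcm7 helicase to DNA, and Mcm10 later helps the loaded helicase to start unwinding. These genes are transcribed mainly in cells that divide, and in a fat pad such cells are few among the adipocytes, which do not divide.

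The genes described here are Mcm2, Mcm3, Mcm4, Mcm5, Mcm6 and Mcm7 of the helicase, the loading factors Cdt1 and Cdc6, and Mcm10. They were chosen by the gene symbol of the platform annotation, and a gene's probe set was selected on its mean level over the 12 arrays, the brightest standing for the gene. The list itself was drawn up with earlier results of these data known. Its counts and medians beside those of all genes are therefore descriptions and not tests. Of the 9 genes listed, 7 had a named probe set, out of 14506 named genes in all. Mcm3 and Mcm4 had no probe set under their names and were not analysed here. Each of the 7 had 1 probe set, so brightness decided nothing. Their mean levels over the 12 arrays were between 5.112 and 8.813 on the log2 scale, and levels of different probe sets are not set against each other.

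All rats were male and of the Sprague-Dawley strain, and the tissue was epididymal white adipose tissue, a fat pad of the abdomen. There were 4 fed rats (Fed), 4 rats fasted until phase 2 (P2) and 4 fasted until phase 3 (P3), with 1 Affymetrix Rat Gene 1.0 ST array each and no further treatment named. Phase 2 of prolonged fasting is known for the use of fat as the main fuel, and phase 3 for a rise in protein breakdown. The rats' ages and the length of each fast are not given in the sources used here.

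The extraction protocol speaks of liver, while all other labels name adipose tissue. Adipoq, which encodes adiponectin and marks adipocytes, lay between 11.08 and 13.18 on the log2 scale. Of 12 hepatocyte markers, 7, among them Ttr and Cps1, lay on every array at or below the 95th percentile of 1105 olfactory receptor genes, taken here as mostly silent. That percentile was between 4.94 and 5.37. Among the other 5, Alb, the albumin gene, lay at 7.70 to 8.86 in fed rats, 8.27 to 10.78 in phase 2 rats and 5.2 to 8.34 in phase 3 rats. Adipocyte markers fell in 10 of 12 cases and fibroblast and progenitor markers in 9 of 13 in phase 3 against fed rats, with 2 of the 13 higher (limma, Benjamini-Hochberg adjusted over all genes). Of all genes, 24.3% were called lower and 21.1% higher in that comparison. The median over the tested genes was 0.155 lower on the log2 scale in phase 3 arrays than in fed arrays.

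The sequences below are the 250 bases before the annotated start of 5 of the genes, shown because 3 of them fell in both phases and the other two rose in phase 3. They come from RefSeq in assembly GRCr8 and run 5′ to 3′ on the gene's strand. The stretches are chr4:122918095-122918344 (minus strand) for Mcm2, chr19:13488563-13488812 (plus strand) for Mcm5, chr13:42404353-42404602 (minus strand) for Mcm6, chr12:22163179-22163428 (minus strand) for Mcm7 and chr17:78175137-78175386 (plus strand) for Mcm10. Those of Mcm2, Mcm7 and Mcm10 overlap the span annotated for the gene, since the start used lies inside it. The span of Mcm10 is chr17:78172049-78197644. Capitals mark matches to the 8-letter forms TTTCCCGC, TTTCGCGC, TTTGCCGC and TTTGGCGC on either strand, which E2F factors, the main activators of S-phase genes, are known to bind. Neighbouring capitals can be overlapping matches.
Mcm2: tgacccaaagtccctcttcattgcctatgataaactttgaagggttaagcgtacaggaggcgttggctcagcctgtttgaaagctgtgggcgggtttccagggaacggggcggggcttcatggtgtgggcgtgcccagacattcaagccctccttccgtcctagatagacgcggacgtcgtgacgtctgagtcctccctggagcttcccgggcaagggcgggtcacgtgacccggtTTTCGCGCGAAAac
Mcm5: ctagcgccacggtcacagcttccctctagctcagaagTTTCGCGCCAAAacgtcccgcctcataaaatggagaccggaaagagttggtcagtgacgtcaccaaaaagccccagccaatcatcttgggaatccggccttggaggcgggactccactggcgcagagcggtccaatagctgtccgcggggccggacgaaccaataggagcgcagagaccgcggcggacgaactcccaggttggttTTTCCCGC
Mcm6: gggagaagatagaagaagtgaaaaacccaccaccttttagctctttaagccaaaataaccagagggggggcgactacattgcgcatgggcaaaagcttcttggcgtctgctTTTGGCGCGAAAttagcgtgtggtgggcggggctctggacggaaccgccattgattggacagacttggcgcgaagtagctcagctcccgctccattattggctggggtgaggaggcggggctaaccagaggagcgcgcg
Mcm7: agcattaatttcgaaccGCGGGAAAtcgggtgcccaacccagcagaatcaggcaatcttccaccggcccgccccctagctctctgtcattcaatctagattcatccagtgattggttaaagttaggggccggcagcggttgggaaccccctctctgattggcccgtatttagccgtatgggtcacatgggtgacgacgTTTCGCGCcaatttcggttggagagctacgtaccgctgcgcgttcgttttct
Mcm10: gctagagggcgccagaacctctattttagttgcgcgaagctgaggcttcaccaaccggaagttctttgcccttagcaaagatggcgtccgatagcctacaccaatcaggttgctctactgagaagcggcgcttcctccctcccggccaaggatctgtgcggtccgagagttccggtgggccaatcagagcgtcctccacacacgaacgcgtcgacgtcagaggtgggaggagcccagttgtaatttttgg
Of the 7 listed genes with a promoter in the table, which include Mcm3 but neither Mcm4 nor Cdc6, 6 held such a match within 250 bases before to 50 bases after the start. Among 27457 windows of that length 2.25% held one, and 3.08% of the windows of tested genes did. Both Mcm7, which rose in phase 3, and Mcm5, which fell in both phases, held matches, with 2 in Mcm7 and 3 in Mcm5. Mcm10 held none of these letters in this window. The CCAAT letters were found in 5 of the 7 windows, against 37.7% of all windows. The letters TTTGAA, a form of the element shared by late cell cycle genes, were found in 1 of the 7, against 18.1%.

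The first question was how the licensing genes of phase 2 rats differed from those of fed rats. Mcm2, Mcm5, Mcm6, Cdt1 and Cdc6 fell, while Mcm7 and Mcm10 did not pass the test. The falls ranged from 1.41-fold for Cdt1 to 2.93-fold for Mcm5. Thus 5 of the 7 measured genes were called, all lower (limma, Benjamini-Hochberg adjusted p below 0.05), where 25.2% of all genes were called, 15.5% lower and 9.66% higher. For 5 of the 7 no phase 2 rat lay within the range of the fed rats, nor the reverse, which held for 31.0% of all genes. The median difference of the 7 was -0.84 on the log2 scale and that of all genes was 0.01. In a bulk sample, fewer dividing cells and less RNA per cell cannot be told apart.

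The second question was how phase 3 rats differed from fed rats. Mcm2, Mcm5, Mcm6 and Cdc6 were lower again, while Mcm7 rose 3.02-fold and Mcm10 rose 1.99-fold. Cdt1 did not pass the test. In counts, 4 of the 7 were called lower and 2 higher, where 45.4% of all genes were called, 24.3% lower and 21.1% higher. Phase 3 and fed rats did not overlap for 5 of the 7, against 41.9% of all genes. The median difference of the 7 was -0.55, and -0.40 with each array centred on its median, against 0.05 for all genes as deposited.

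The third question was what separated phase 3 from phase 2. Mcm7, Mcm10 and Cdt1 rose, and none of the 7 fell. These 3 of 7 stood beside 27.9% of all genes called, 12.8% higher and 15.1% lower. The rats of both phases did not overlap for 4 of the 7, against 26.3% of all genes. With arrays centred on their medians or quantile-normalised, and without phase 3 rat 1, 5 of the 7 were called higher, Mcm2 and Mcm6 being the additions. Among all genes called, the share that was higher was 38.4% for phase 2 against fed, and 53.0% once arrays were centred. It was 46.5% and, centred, 69.6% for phase 3 against fed. For phase 3 against phase 2 it was 45.8% and, centred, 64.9%. The 3 comparisons share their arrays pairwise and are not independent of each other.

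**Figure D1:**
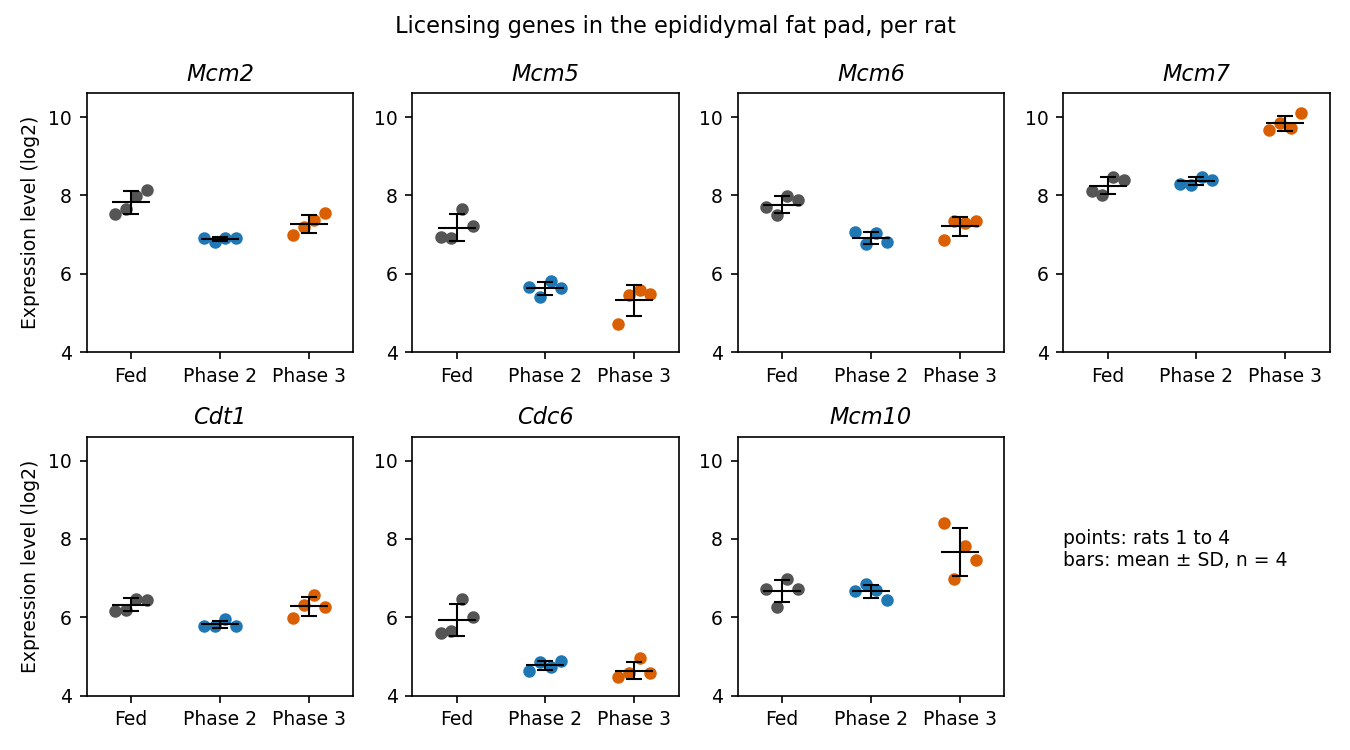
Expression level (log2) of the 7 measured licensing genes in each fed, phase 2 and phase 3 rat. Points are rats 1 to 4 and bars are the mean ± SD (n = 4); Mcm7 lies between 9.67 and 10.10 in phase 3 rats, above every other rat, while Mcm5 and Cdc6 lie lower in all fasted rats than in fed rats.

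Mcm5 is a core subunit of the helicase ring, at the gate through which DNA enters. Its log2 level was 6.93, 6.92, 7.65 and 7.21 in fed rats, 5.66, 5.41, 5.81 and 5.64 in phase 2 rats and 4.73, 5.47, 5.58 and 5.49 in phase 3 rats. Every fasted rat lay below every fed rat, and phase 2 and phase 3 overlapped. The difference was -1.55 ± 0.191 (SE) in phase 2 against fed rats (limma adjusted p = 5.21e-05) and -1.86 ± 0.191 in phase 3 against fed rats (adjusted p = 2.07e-06), 3.64-fold. Phase 3 differed from phase 2 by -0.31 (95% interval -0.72 to 0.10, adjusted p = 0.257). Phase 3 rat 1, the lowest, was the only rat in which Mcm5 did not exceed the 95th percentile of the olfactory receptor genes.

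Mcm2, the subunit that also carries histones, had levels of 7.53, 7.65, 7.98 and 8.14 in fed rats, 6.91, 6.82, 6.92 and 6.92 in phase 2 rats and 6.98, 7.20, 7.36 and 7.55 in phase 3 rats. The phase 2 rats lay below all others, and the highest phase 3 rat overlapped with the fed rats. Mcm2 differed by -0.93 ± 0.138 in phase 2 against fed (limma adjusted p = 0.000236) and by -0.55 ± 0.138 in phase 3 against fed (adjusted p = 0.00447). The difference between phase 3 and phase 2 was 0.38 ± 0.138. It missed the threshold (adjusted p = 0.0553; the alternatives gave 0.0179 to 0.167) although the rats of the groups did not overlap.

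Mcm6, which sits beside Mcm2 in the ring, also fell in both phases. Its levels were 7.70, 7.50, 7.98 and 7.87 in fed rats, 7.07, 6.77, 7.04 and 6.81 in phase 2 rats and 6.86, 7.34, 7.29 and 7.35 in phase 3 rats. All fasted rats lay below all fed rats. The difference was -0.84 ± 0.131 in phase 2 against fed (limma adjusted p = 0.000341) and -0.55 ± 0.131 in phase 3 against fed (adjusted p = 0.00315). Between phase 3 and phase 2 it was 0.29 (95% interval 0.01 to 0.57, adjusted p = 0.119; the alternatives gave 0.0195 to 0.258).

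Mcm7, part of the catalytic core of the helicase, differed from the other measured subunits. Its levels were 8.11, 8.01, 8.47 and 8.39 in fed rats, 8.28, 8.26, 8.48 and 8.39 in phase 2 rats and 9.67, 9.86, 9.73 and 10.10 in phase 3 rats. Phase 2 and fed rats overlapped, and the phase 3 rats stood apart. The difference between phase 2 and fed was 0.11 (95% interval -0.15 to 0.36, limma adjusted p = 0.574). Phase 3 exceeded fed by 1.59 ± 0.119 (adjusted p = 8.82e-08) and phase 2 by 1.48 ± 0.119 (adjusted p = 1.04e-06). Over the alternatives the difference from fed rats ranged from 1.51 to 1.75.

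To set the subunits side by side, each was taken relative to its own fed mean. In a difference between subunits of the same array, a shift shared by all its genes cancels, though other normalisations can still move it. Mcm7 minus the mean of Mcm2, Mcm5 and Mcm6 was then between 2.32 and 2.82 in phase 3 rats and between 1.08 and 1.28 in phase 2 rats, against -0.06 to 0.07 in fed rats. The 3 groups did not overlap. This contrast was chosen after the values were seen and is given with no test. It shows unequal change of transcripts whose products are known to form 1 ring, and says nothing of the protein.

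Mcm7 lies at chr12:22155921-22163320 in GRCr8. Its nearest measured neighbours did not show a rise of its size. Cops6, a COP9 signalosome subunit gene 393 bases away, fell by 0.72 ± 0.0746 in phase 3 against fed (limma adjusted p = 2.32e-06). Ap4m1, an adaptor complex gene 153 bases away on the other side, differed by 0.21 ± 0.085 (adjusted p = 0.0589), and Taf6, a transcription factor subunit gene, by -0.14 ± 0.0847 (adjusted p = 0.184). In phase 3 against phase 2, Ap4m1 rose by 0.26 (adjusted p = 0.0343). There Cops6 differed by -0.38 (adjusted p = 0.0016) and Taf6 by -0.01 (adjusted p = 0.931).

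**Figure D2:**
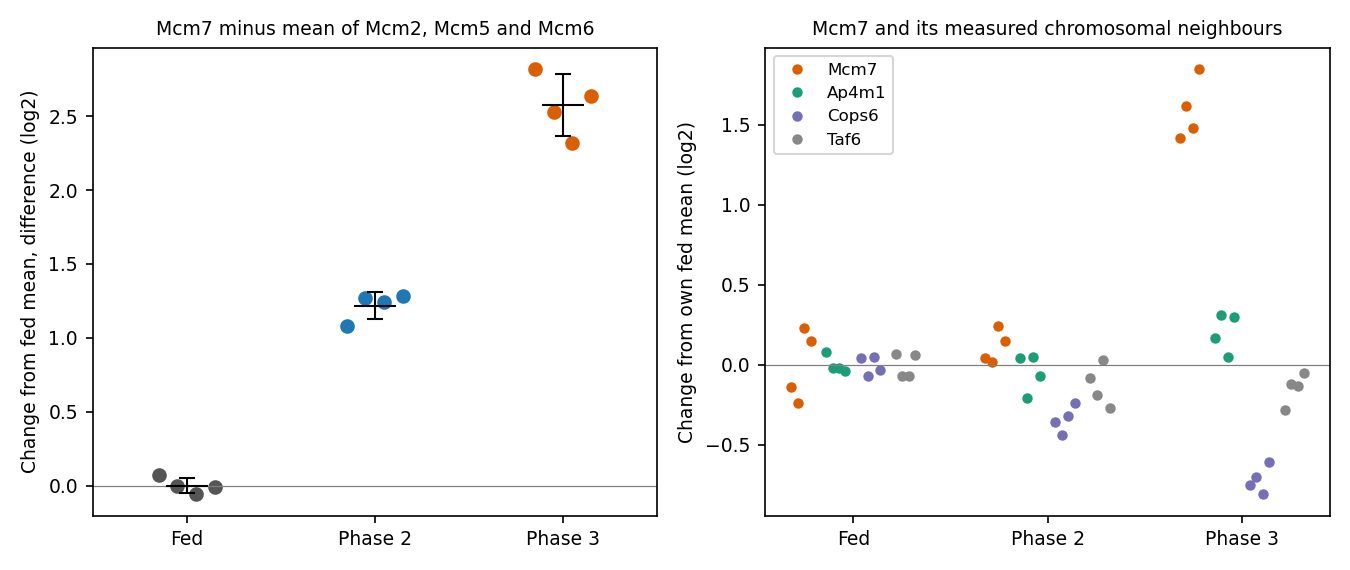
Left, the change of Mcm7 from its fed mean minus the mean change of Mcm2, Mcm5 and Mcm6 in each rat (log2), with mean ± SD (n = 4). Right, the change of Mcm7 and of its measured chromosomal neighbours Ap4m1, Cops6 and Taf6 from their own fed means (log2); the 4 phase 3 rats reach 2.32 to 2.82 on the left, and Mcm7 alone rises by more than 1 on the right.

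The Mcm7 gene is also known as the host of 3 microRNAs, Mir106b, Mir93 and Mir25. Their mature RNAs were not analysed here. All 3 lie inside the annotated span of Mcm7 on the same strand, with Mir25 at chr12:22156641-22156724 and Mir93 at chr12:22156844-22156930. Their main mature sequences are shown from RefSeq because Mcm7, the gene that hosts them, rose in phase 3. Capitals mark the seed, bases 2 to 8, which the first pair share.
rno-miR-106b-5p: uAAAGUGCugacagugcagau
rno-miR-93-5p: cAAAGUGCuguucgugcagguag
rno-miR-25-3p: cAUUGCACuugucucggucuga

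**Figure D3:**
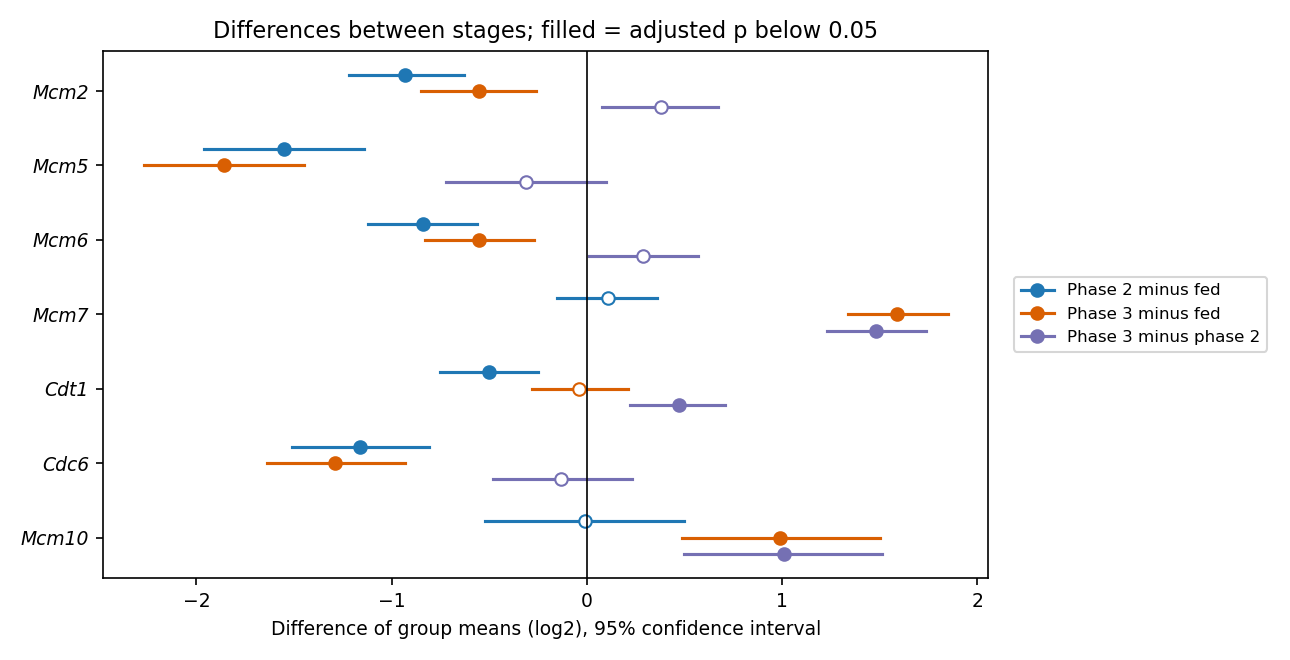
Differences of group means (log2) for each licensing gene with 95% confidence intervals, in phase 2 minus fed, phase 3 minus fed and phase 3 minus phase 2. Filled points passed the test (adjusted p below 0.05); Mcm5 at -1.86 and Mcm7 at 1.59 are the extremes of phase 3 minus fed as measured.

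Cdc6 is the ATPase that loads the helicase together with the origin recognition complex. Its levels were 5.60, 5.65, 6.46 and 6.0 in fed rats, 4.62, 4.85, 4.72 and 4.88 in phase 2 rats and 4.47, 4.58, 4.95 and 4.57 in phase 3 rats. All fasted rats lay below all fed rats, and phases 2 and 3 overlapped. The difference was -1.16 ± 0.165 in phase 2 (limma adjusted p = 0.000164) and -1.29 ± 0.165 in phase 3 (adjusted p = 1.68e-05), each against fed. On all 8 arrays of fasted rats Cdc6 was at or below the 95th percentile of the olfactory receptor genes, so the folds of 2.23 and 2.44 are not exact.

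Cdt1, the partner that brings the helicase to the origin, was lower in phase 2 than in either other stage. Its levels were 6.16, 6.19, 6.47 and 6.44 in fed rats, 5.78, 5.77, 5.95 and 5.77 in phase 2 rats and 5.98, 6.32, 6.56 and 6.27 in phase 3 rats. The phase 2 rats lay below all others, and fed and phase 3 rats overlapped. Cdt1 differed by -0.50 ± 0.116 in phase 2 against fed (limma adjusted p = 0.00563). It rose by 0.47 ± 0.116 in phase 3 against phase 2 (adjusted p = 0.0078). Phase 3 and fed differed by -0.04 (95% interval -0.28 to 0.21, adjusted p = 0.825), and the sign turned with arrays centred on their medians (0.12) or quantile-normalised (0.08).

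Mcm10 had levels of 6.73, 6.27, 6.97 and 6.73 in fed rats, 6.66, 6.86, 6.69 and 6.43 in phase 2 rats and 8.41, 6.97, 7.82 and 7.47 in phase 3 rats. The phase 3 rats spread widely (SD 0.604), and the lowest of them was just above the highest fed rat. The rise was 0.99 ± 0.236 against fed (limma adjusted p = 0.00311; the alternatives gave 0.000198 to 0.0123) and 1.01 ± 0.236 against phase 2 (adjusted p = 0.00534). Phase 2 and fed differed by -0.01 (95% interval -0.52 to 0.50, adjusted p = 0.982). Phase 3 rat 1 had the highest Mcm10 and the lowest Mcm2, Mcm5, Mcm6, Cdt1 and Cdc6 of its group. Its neighbour Optn, an autophagy receptor gene 2505 bases away, rose by 1.34 ± 0.137 in phase 3 against fed (adjusted p = 2.03e-06), and the bearing of this on Mcm10 was not tested.

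The genes around licensing were described from lists of the same pathway. Their counts against fed stand beside 25.2% of all genes called in phase 2, 15.5% lower and 9.66% higher. In phase 3 the share of all genes was 45.4%, with 24.3% lower and 21.1% higher. Of the 6 genes of the origin recognition complex, which marks origins, 1 was lower and 1 higher in phase 2 and 2 each way in phase 3, both against fed. Orc6 fell by 0.44 in phase 2 (limma adjusted p = 0.00251), while Orc2 rose by 0.84 in phase 3 (adjusted p = 2.45e-05) and Orc5 fell by 0.64. Orc1 differed by -0.28 in phase 2 and -0.26 in phase 3 and passed in neither (adjusted p = 0.069 and 0.0552). It was at or below the olfactory receptor percentile on all 8 arrays of fasted rats and 3 of 4 arrays of fed rats.

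Of 7 measured genes that control licensing, 3 fell and 1 rose in phase 2, and 3 fell and 3 rose in phase 3, each against fed. Geminin, Gmnn, which holds Cdt1 inactive after S phase, fell by 0.58 ± 0.154 in phase 2 (limma adjusted p = 0.0122) and differed by -0.29 in phase 3 (adjusted p = 0.141). Skp2 and Ccnf, parts of ubiquitin ligases that act on licensing factors, were lower in phase 3, with differences of -0.53 and -0.92 (adjusted p = 0.000629 and 0.000135), although Ccnf was at or below the olfactory receptor percentile on 3 of 4 phase 3 arrays. Cul4b, a cullin of the ligase class that destroys Cdt1, rose by 1.00 (adjusted p = 1.59e-06).

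Of 13 genes of origin firing, 7 fell and 1 rose in phase 2, and 7 fell and 2 rose in phase 3, against fed (5 and 1, and 4 and 3, with centred arrays). Ccne1, cyclin E1, fell by 1.24 in phase 2 and fell by 1.24 in phase 3 (limma adjusted p = 0.000236 and 6.57e-05). It was at or below that percentile on 3 of 4 phase 2 arrays and all 4 phase 3 arrays, so the size of the fall is not exact. Cdc7, the kinase that phosphorylates the loaded helicase, fell by 0.62 in phase 2 and fell by 1.16 in phase 3 (adjusted p = 0.000422 and 3.73e-07). Cdk2, the partner of cyclin E, rose by 0.54 in phase 3 (adjusted p = 0.000582). The helicase cofactor Cdc45 fell by 0.33 in phase 2, a call that 6 of 20 alternatives ended, and fell by 0.37 in phase 3, a call that centring ended (adjusted p = 0.0882).

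Of 22 genes of the replication fork, 10 fell and none rose in phase 2 against fed, and 7 fell and 2 rose in phase 3. The phase 3 count was no larger a share than the 45.4% of all genes called. Pold2, a subunit of DNA polymerase delta, fell by 0.76 in phase 2 and fell by 0.96 in phase 3 (limma adjusted p = 6.47e-05 and 1.69e-06). Pcna, the sliding clamp, had levels of 9.03, 8.45, 9.31 and 9.18 in fed rats, 8.30, 8.42, 8.83 and 8.67 in phase 2 rats and 9.25, 9.67, 9.42 and 9.68 in phase 3 rats. It exceeded phase 2 by 0.95 ± 0.173 in phase 3 (adjusted p = 0.000936). Its rise of 0.51 over fed (adjusted p = 0.0265) was not called without fed rat 2 or phase 3 rat 2 or 4 (up to 0.0781).

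Of 7 genes of deoxynucleotide supply 4 fell in phase 2 and 5 in phase 3 against fed, and none rose. Rrm2, the ribonucleotide reductase subunit made in S phase, fell by 2.01 in phase 2 and fell by 2.44 in phase 3 (limma adjusted p = 2.01e-05 and 6.38e-07). All 18 measured genes of mitosis were lower than in fed rats in each phase, with medians of -1.27 in phase 2 and -1.57 in phase 3 (17 of 18 in each with arrays centred). Top2a, topoisomerase II alpha, fell by 2.12 in phase 2 and fell by 3.29 in phase 3 (adjusted p = 9.05e-05 and 3.26e-07). Rrm2 and Top2a were each at or below the olfactory receptor percentile on 2 of 4 phase 3 arrays, so their phase 3 sizes are not exact. None of the 18 rose in phase 3 against phase 2, where Mcm7, Mcm10 and Cdt1 did. Some genes of other lists also rose between these phases, where 12.8% of all genes were called higher and 15.1% lower. Origin firing held 3 of 13 higher and 1 lower, the replication fork 3 of 22 and 1, and licensing control 2 of 7 and 0. Deoxynucleotide supply held 0 of 7 higher and 2 lower, and the G1 list 3 of 11 and 5. With centred arrays, origin firing held 4 of 13 higher and 1 lower. The replication fork then held 5 of 22 and 0, and licensing control 3 of 7 and 0. Deoxynucleotide supply then held 0 of 7 and 1, and the G1 list 3 of 11 and 5. Of all genes called, 64.9% were higher with centred arrays, against 45.8% as deposited.

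Among the factors upstream, E2f1, an activator of S-phase genes, fell by 0.73 in phase 2 and fell by 0.77 in phase 3 against fed (limma adjusted p = 0.000864 and 0.00022). E2f1 was at or below the olfactory receptor percentile on 1 of 4 phase 2 and 2 of 4 phase 3 arrays. Rbl2, the p130 protein that holds E2F targets silent in resting cells, rose by 0.46 and by 0.87 (adjusted p = 0.00579 and 1.05e-05). Of 8 E2F and RB factors measured, 2 fell and 1 rose in phase 2, and 3 fell and 2 rose in phase 3. Of 11 G1 cyclins, kinases and inhibitors, 4 fell and 2 rose in phase 2, and 5 fell and 3 rose in phase 3. Ccnd1, cyclin D1, fell by 1.12 in phase 2 and fell by 2.74 in phase 3 (adjusted p = 3.58e-05 and 1.56e-09). Cdkn1b, the inhibitor p27, rose by 0.66 and by 1.08 (adjusted p = 0.000584 and 2.12e-06).

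Of 3 helicase relatives outside licensing, none passed the test in phase 2 and 1 was lower in phase 3, against fed. Mcm8, which acts in recombination repair, differed by -0.15 in phase 2 and by -0.02 in phase 3 against fed (limma adjusted p = 0.251 and 0.894). It was at or below the olfactory receptor percentile on all 8 arrays of fasted rats and 3 of 4 arrays of fed rats. Mcmdc2, known from meiosis, differed by -0.40 in phase 2 (adjusted p = 0.0647) and fell by 0.78 in phase 3 (adjusted p = 0.000619). Its level was at or below the percentile on 3 of 4 phase 2 arrays and all 4 phase 3 arrays, so these sizes are not exact. With arrays centred, 1 of these 3 genes was higher and 1 lower in phase 3.

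**Figure D4:**
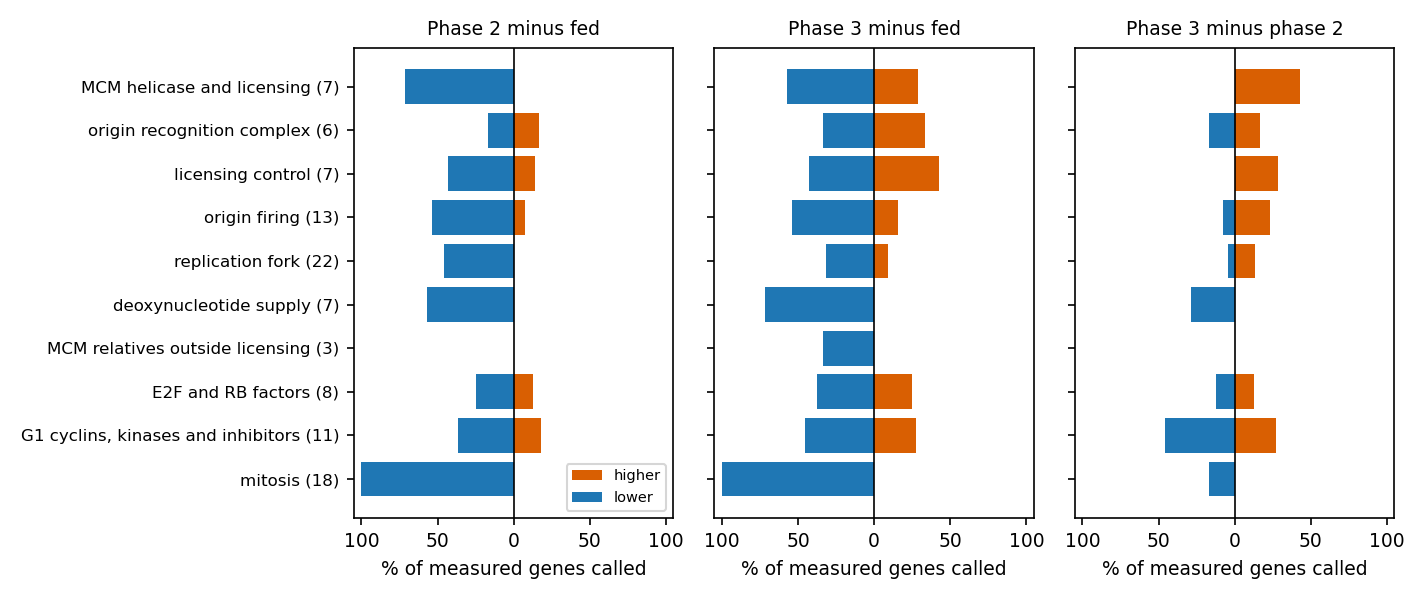
Share of the measured genes of each list called higher (right of 0) or lower (left of 0) in phase 2 minus fed, phase 3 minus fed and phase 3 minus phase 2, in percent, with the number measured in brackets. All 18 mitosis genes were lower in both fasted phases against fed rats, while the licensing list held 5 of 7 lower in phase 2 and both directions, 4 lower and 2 higher, in phase 3.

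Markers of several cell types also differed between the stages, some lower and some higher in fasted rats. Among all genes, 15.5% were called lower and 9.66% higher in phase 2 against fed. The mean log2 level over 13 fibroblast and progenitor markers was between 10.41 and 10.56 in fed rats, 9.93 and 10.22 in phase 2 rats and 8.91 and 9.43 in phase 3 rats, and 4 of 13 fell and 1 rose in phase 2 against fed. Over 6 mesothelial markers it was 8.39 to 8.68, 7.75 to 8.09 and 7.23 to 7.71 in the same order, with 5 of 6 lower in phase 2. Over 12 adipocyte markers it was 11.46 to 11.51, 11.19 to 11.53 and 9.72 to 10.46. Over 8 smooth muscle markers it was 8.11 to 8.68, 9.10 to 9.92 and 9.10 to 9.71, and all 8 rose in phase 2. Endothelial markers rose in 7 of 10 cases in phase 2 against fed. The part of these cells in the licensing values was not tested.

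The mean over 15 macrophage markers was 9.23 to 9.47 in fed rats, 9.33 to 9.59 in phase 2 rats and 9.20 to 9.69 in phase 3 rats, with Marco at or below the olfactory receptor percentile on all arrays. Of these 15, 2 rose and 1 fell in phase 2, and 4 rose and 5 fell in phase 3, against fed. Among all genes 25.2% were called in phase 2. In phase 3 it was 45.4%, with 24.3% lower and 21.1% higher. The mean over 13 T and NK cell markers was 5.83 to 6.0, 5.99 to 6.21 and 5.72 to 5.95. Over 6 erythroid markers it was 7.83 to 7.90, 8.27 to 8.56 and 6.77 to 7.80, and 3 of them fell in phase 3 against fed. Over 4 B cell, 8 neutrophil and 8 mast cell markers, 2, 2 and 1 fell in phase 3 and 1, 3 and 1 rose. Of 13 epididymis and testis markers, 10 lay at or below that percentile on every array. The part of these cells was not tested either.

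The genes closest in pattern to the mean of the 7 licensing genes were found by the root mean square difference over the 12 arrays, each gene taken relative to its fed mean. They were Pole, the catalytic subunit of DNA polymerase epsilon (0.122 log2 units), Gypc, glycophorin C (0.126), Gmnn (0.155), Pafah2, a phospholipase that acts on platelet-activating factor (0.157), Bora, an activator of Aurora A (0.161), and Odc1, the ornithine decarboxylase of polyamine synthesis (0.166). The licensing genes themselves lay between 0.188, for Cdt1, and 1.16, for Mcm7, from that mean, so it describes Cdt1, Mcm6 and Mcm2 better than the others. Pole had levels of 5.65, 5.55, 5.95 and 6.10 in fed rats, 5.2, 5.26, 5.14 and 5.14 in phase 2 rats and 5.58, 5.52, 5.54 and 5.53 in phase 3 rats. It was lowest in phase 2, as Cdt1 and Mcm2 were, which follows from its selection for likeness to the mean of the licensing genes.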

How the data were processed

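The deposited values are log2 expression levels per probe set, which the authors made with RMA, per the submitters' processing notes, which also name GCOS and Affymetrix Expression Console 1.1. RMA quantile-normalises the arrays, so a shift shared by all genes is removed. The 12 arrays had medians of 6.03 to 6.13 over all probe sets. Library version and settings are not given in the sources used here, and detection calls and scan batches were not used.

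Of 29215 probe sets, 15310 had 1 gene in the platform annotation, 323 several and 13582 none, and only the first kind was named. One probe set per gene left 14506 genes, of which 14481 matched RefSeq (GRCr8) by Entrez number. A linear model of the 3 groups without covariates was fitted to all 12 arrays with limma 3.58.1 in R 4.3.3 and tested on simulated data. Benjamini-Hochberg adjustment ran over all 14506 genes, and calls were made below 0.05. Levels are log2, differences carry the SE of the model, and intervals are 95%. Python 3.11.15, pandas 2.3.3 and matplotlib 3.10.9 made tables, motif matches and plots. Precision is limited by how many arrays there are and, for dim genes, by the signal.

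The members and lists were chosen with earlier results of these data known. Genes could be named if they were members or among the 6 genes nearest in pattern. From each pathway list, up to 3 called genes with the smallest adjusted p per comparison qualified, or up to 2 if none was called. Gmnn, Mcmbp, Orc1, Orc6, Cdc45, Pcna, Mki67, Mcm8 and Mcm9 qualified where measured. Not every gene that this rule picked is given in the text. The neighbours, the promoters and the microRNAs fall outside that rule and were chosen after the values were seen. Alternatives were 3 other normalisations, a filter on dim genes, other probe set choices, another variance prior, only the arrays compared, a replicate block and leaving out each rat. The labels number the rats 1 to 4 within a group. P-values set a difference of group means against the spread between these rats, which limma draws towards the spread of all genes.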

Additional observations from a re-analysis of the deposited data

Results flagged for a closer look

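In 24 groups of 4 rats, those of the 7 genes and of the Mcm7 contrast, 4 held a rat far from the others by Dixon's criterion (95% level), where chance flags about 1 group in 20. These groups share rats, and the contrast is built from genes already counted. The flags are thus not independent, and an excess over chance was not tested. Mcm5 was 4.73 in phase 3 rat 1, with the other phase 3 rats between 5.47 and 5.58. Mcm6 was 6.86 in the same rat, with the others between 7.29 and 7.35. Mcm2 was 6.82 in phase 2 rat 2, against 6.91 to 6.92 in the others, and Cdt1 was 5.95 in phase 2 rat 3, against 5.77 to 5.78. The phase 2 gaps were under 0.2 log2 units. Without phase 3 rat 1, Mcm6 in phase 3 exceeded phase 2 by 0.41 (limma adjusted p = 0.0195) and Mcm2 by 0.48 (adjusted p = 0.0189).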

How the results depend on the processing

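All 14 called differences of the 7 genes kept their direction and their call in each of the 288 refits that measured the gene (limma). Many of these refits could not change the direction. Each gene had 1 probe set, and only another normalisation or leaving out a rat of the groups compared could move its difference. Among the 7 uncalled differences, 24 of 144 refits changed sign or passed the threshold. For Mcm10 in phase 2 against fed the sign turned with centred arrays (0.05), quantile normalisation (0.04) and cyclic loess (0.03), with values from -0.15 to 0.09 when 1 rat was left out. For Cdt1 in phase 3 against fed it turned with centred arrays (0.12) and quantile normalisation (0.08), with values from -0.13 to 0.07 when 1 rat was left out. The count of licensing genes called in phase 3 against phase 2 was 3 as deposited, 5 with centred arrays, 5 with quantile normalisation and 3 to 5 when 1 rat was left out. In phase 2 against fed it was 2 without the dimmest 40% of genes, since only 4 of the 7 were then tested. In phase 3 against fed, all genes called numbered 6589, and 10322 when all 29215 probe sets were tested.

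The labels do not state that the rats' numbers pair them, and weak correlations cannot settle it. Of 12 same-numbered pairs across groups, 4 had deviations correlated above 0.1 (range -0.155 to 0.188). Of 36 differently numbered pairs, 8 did (range -0.253 to 0.276). Of 12 rats, 2 correlated best with their own number. With the replicate block, 5 of the 7 genes were called in phase 2 and 6 in phase 3 against fed. Between the fasted phases 4 were called, with Mcm2 added (0.38, adjusted p = 0.0185). Signal near that of silent genes limits Cdc6 in fasted rats and Mcm5 in phase 3 rat 1.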

Other observations

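In phase 3 against fed rats, some measured chromosomal neighbours of the licensing genes passed the test and some did not, where 45.4% of all genes passed. Podxl2 beside Mcm2 and Ucma beside Mcm10 did not pass (limma adjusted p = 0.214 and 0.224), nor did Ap4m1 and Taf6 beside Mcm7. Whether the neighbours exceeded the share of all genes was not tested. Hmox1, the inducible haem oxygenase gene 8989 bases from Mcm5, rose by 1.04 ± 0.289 (limma adjusted p = 0.00907), while Mcm5 fell. Its level in phase 3 rat 1 was 7.16, within the fed range of 7.02 to 7.3. Rara, a retinoic acid receptor gene 5540 bases from Cdc6, fell by 0.74 ± 0.0856 (adjusted p = 6.9e-06), as Cdc6 did. Aprt, an adenine salvage gene 541 bases from Cdt1, fell by 0.26 ± 0.0738 (adjusted p = 0.0101), while Cdt1 did not pass the test. Galns, which encodes a lysosomal sulfatase 2979 bases from Cdt1, fell by 0.76 ± 0.115 (adjusted p = 8.72e-05). Tpra1, 3098 bases from Mcm2, rose by 0.27 ± 0.0865 (adjusted p = 0.0181), while Mcm2 fell.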
